A study of Mus musculus with 12 samples.

Results

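The aminoacyl-tRNA synthetase genes encode the enzymes that join each amino acid to its transfer RNA before translation. Rows of the count table were selected by symbol from a list of 36 such genes, and all 36 were found among its 24421 entries. Of these, 20 encode enzymes of the cytosol and 16, whose symbols end in 2, encode enzymes of mitochondria. All 36 passed the filter on low counts and were tested among 13937 genes.

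The samples were tibialis anterior muscles, from the front of the lower hindlimb, of 12 male mice aged 4 months. The 6 WT mice were C57Bl/6, and the 6 mdx/mTR mice carry the mdx mutation of the dystrophin gene Dmd together with a mutation of the telomerase RNA gene (mTR). Both alterations are inherited, so every cell of the animal carries them, and the generation of telomerase deficiency is not given in the sources used here. Nothing in the labels pairs the mice across the groups.

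As background, cytosolic synthetases supply the ribosomes that translate nuclear genes, and mitochondrial synthetases supply the separate ribosomes that make a small set of respiratory chain subunits. Most amino acids have one gene for each compartment. Gars and Kars serve both compartments, Eprs joins glutamate and proline in a single protein, and Farsa and Farsb together form the phenylalanine enzyme. Mitochondria use no separate synthetase for glutaminyl transfer RNA, because a transamidase converts the charged transfer RNA. Several cytosolic enzymes are held in the multisynthetase complex by the scaffold proteins of Aimp1, Aimp2 and Eef1e1. Transcription of many cytosolic synthetase genes can be raised by ATF4, the main transcription factor of the integrated stress response, which binds composite sites shared with C/EBP proteins. Mutations of several synthetase genes cause inherited neuropathies, and those of several mitochondrial members cause disorders of energy metabolism.

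Library totals were 36903560 to 40981012 counts for WT mice and 35136327 to 60330410 counts for mdx/mTR mice. The counts of single members ran from 142 to 21730 per library, so no member was near the limit of detection. Dmd, the gene hit by mdx, fell from 237 ± 6.90 CPM (CPM is a gene's count relative to the scaled library total) in WT to 46.8 ± 7.20 CPM in mdx/mTR (mean ± SD, n = 6), with no overlap. On the first principal component, which split WT from mdx/mTR, WT replicate 2 was the WT library nearest to mdx/mTR and mdx/mTR replicate 5 the library farthest from WT. The muscles also differed in markers of cell types. All 9 tested macrophage markers rose, and their summed level was 96.3 to 165 CPM in WT mice against 280.3 to 772 CPM in mdx/mTR mice. Of 7 fibroblast markers 6 rose (summed level 903 to 1632 CPM against 2267 to 4484). Of 5 myogenic progenitor markers 4 rose (23.6 to 33.8 against 45.0 to 104 CPM). Of 7 muscle fibre markers 2 fell (139765 to 169959 against 107811 to 150082 CPM), so every library expressed the genes that define the labelled tissue. All 3 Schwann cell markers and 3 of 5 endothelial markers fell, all 3 dividing cell markers and the 1 tested T cell marker rose, and 0 of 2 adipocyte markers was called. In whole muscle, fewer cells of a type and less RNA per cell cannot be told apart, and the part of cell composition in the results below was not tested.

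Synthetase mRNAs were lower in mdx/mTR muscle for 20 of the 36 members, by modest amounts. A gene was called at a Benjamini-Hochberg adjusted p under 0.05 over all tested genes in edgeR's quasi-likelihood test, on libraries scaled by TMM (trimmed mean of M-values). Of the 20 cytosolic members 13 fell and 0 rose, and of the 16 mitochondrial members 7 fell and 0 rose. Of all tested genes 48.3% were called, 23.4% lower and 25.0% higher. Falls among the 20 called members ranged from 9.40% to 31.9%. The median log2 fold change was -0.23 for cytosolic and -0.15 for mitochondrial members, against 0.01 for all tested genes. In CPM, the groups did not overlap for 9 cytosolic and 3 mitochondrial members, all lower in mdx/mTR, where 25.2% of all tested genes did not overlap and 12.6% were wholly lower. The difference between the compartments in these counts was not tested. Summed over the 20 cytosolic members, the level was 1766 to 2052 CPM in WT mice and 1523 to 1689.7 CPM in mdx/mTR mice. Summed over the 16 mitochondrial members it was 408 to 429 and 345 to 402 CPM. Neither sum overlapped between the groups in the TMM scaling. As a share of library totals, the 36 members together made up 0.213% to 0.238% in WT and 0.205% to 0.222% in mdx/mTR, which overlap.

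**Figure D1:**
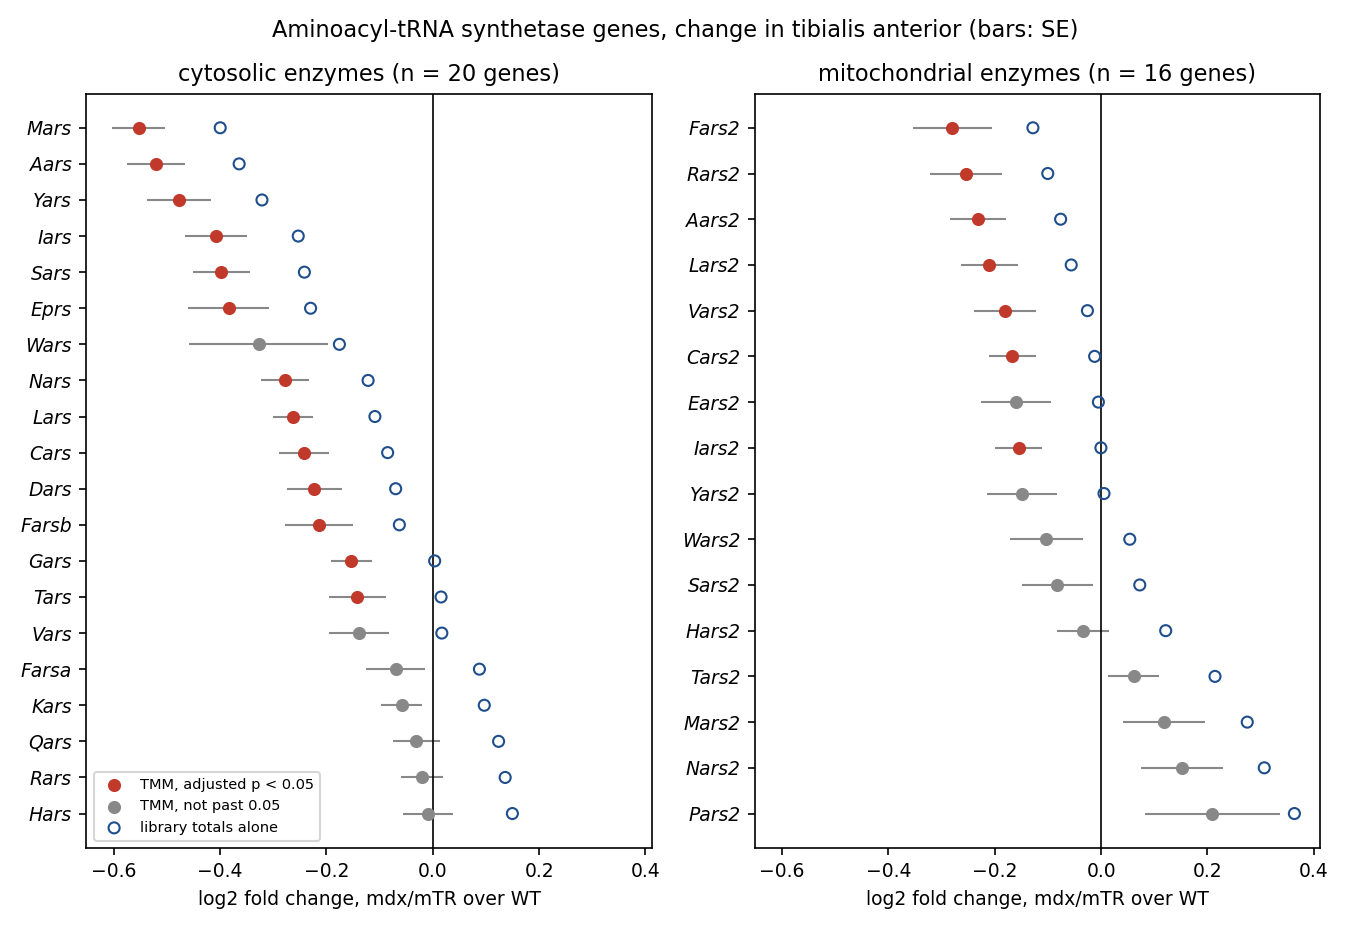
Log2 fold change of each member in mdx/mTR over WT (x axis) with its SE, in the TMM scaling (filled) and with library totals alone (open), for 20 cytosolic and 16 mitochondrial genes. Filled points run from -0.55 for Mars to 0.21 for Pars2, and library totals move every point to the right.

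The scaling matters for changes of this size. With library totals alone, the log2 fold change of the median gene rose from 0.01 to 0.17. Under that scaling 8 cytosolic members were lower and 4 higher, and of the mitochondrial members 0 were lower and 4 higher, while 11.2% of all genes were lower and 40.2% higher. The medians were then -0.08 for cytosolic and 0.00 for mitochondrial members. The 8 members lower under both scalings were Aars, Eprs, Iars, Lars, Mars, Nars, Sars and Yars, all cytosolic. Each of these 8 also kept its call in all 20 alternative analyses, including those that left out a mouse. Changes below are given in the TMM scaling.

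Mars, the cytosolic methionine enzyme and a member of the multisynthetase complex, had the largest fall of the 36. Its level in WT was 89.7 CPM at the lowest, 99.3 at the median and 103 at the highest, and in mdx/mTR 61.9, 66.7 and 73.0 CPM. All 6 mdx/mTR mice were below all 6 WT mice. The log2 fold change was -0.55 (SE 0.05, adjusted p 2.5e-06), a fall of 31.9%. In GENCODE M21 (GRCm38) the gene spans 127296221 to 127311786 on the minus strand of chromosome 10, and its exons share 68 bases with Ddit3, a stress response gene described below, on the opposite strand. Whether the authors' counting used strand is not given in the sources used here.

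Aars, the alanine enzyme, on the plus strand of chromosome 8 (111033144 to 111057664), was next. WT values were 149.99, 176 and 181 CPM (lowest, median, highest), and mdx/mTR values 115, 118 and 133 CPM. The groups were separate, and WT replicate 2 was the lowest WT mouse. The log2 fold change was -0.52 (SE 0.05, adjusted p 7.7e-06). In its longest coding transcript, 22.4% of 50-base stretches also occur in Exosc6, whose exons overlap those of Aars on the same strand, so reads could have been split between them. Exosc6, named for this overlap, stood at 1.98 and 2.47 CPM (WT, mdx/mTR) and was not called (0.33, adjusted p 0.0733).

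Yars, the tyrosine enzyme (chromosome 4, 129189760 to 129219607, plus strand), ranged from 56.2 through 64.2 to 69.6 CPM in WT and from 41.5 through 47.0 to 49.7 CPM in mdx/mTR, without overlap. Its log2 fold change was -0.48 (SE 0.06, adjusted p 3.1e-05). Iars, the isoleucine enzyme of the complex (chromosome 13, 49682100 to 49734267, plus strand), ranged from 110.3 through 127 to 133 CPM in WT and from 83.2 through 94.0 to 103 CPM in mdx/mTR, also without overlap. Its log2 fold change was -0.41 (SE 0.06, adjusted p 0.00010). Of its 50-base stretches, 8.61% also occur in Gm4849. Sars, the serine enzyme (chromosome 3, 108424865 to 108445209, minus strand), stood at 106, 116 and 124 CPM in WT and at 79.0, 86.9 and 95.6 CPM in mdx/mTR. These groups were separate too, and the log2 fold change was -0.40 (SE 0.05, adjusted p 5.9e-05).

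Eprs, which charges both glutamate and proline (chromosome 1, 185363044 to 185428360, plus strand), was the most abundant member. Per kilobase of its longest coding transcript it stood at 89.6 CPM in WT, and the other cytosolic members at 13.01 to 54.7 CPM per kilobase. Its level was 358, 454 and 466 CPM in WT (lowest, median, highest) and 282, 345 and 367 CPM in mdx/mTR. The overlap came from WT replicate 2, at 358 CPM against 444 to 466 in the other WT mice. The log2 fold change was -0.38 (SE 0.08, adjusted p 0.0011), and -0.44 without WT replicate 2.

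**Figure D2:**
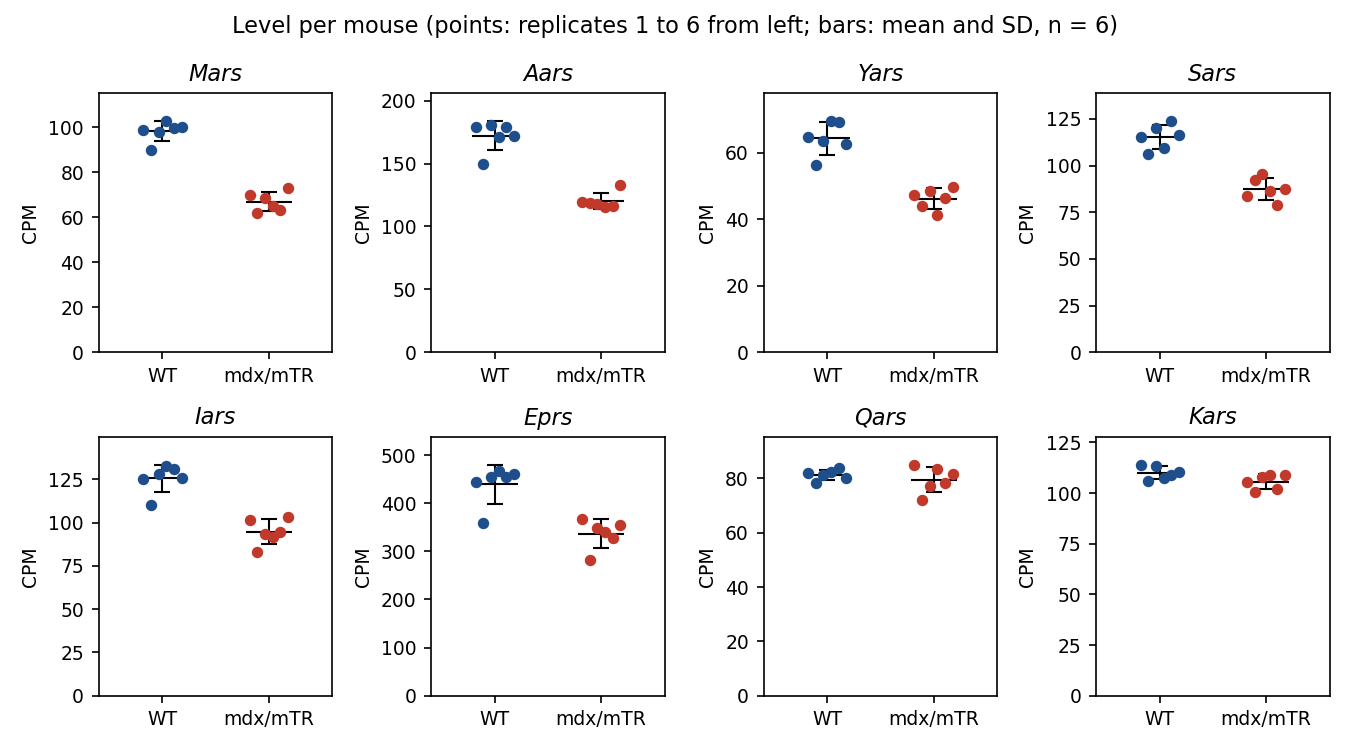
CPM per mouse (y axis, from 0) of 8 cytosolic members in WT and mdx/mTR, with mean and SD (n = 6 each). Mars, Aars, Yars, Sars and Iars separate the groups, Eprs overlaps through WT replicate 2, and Qars and Kars overlap in part.

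Of the remaining falls among cytosolic members, Nars (asparagine), Lars (leucine) and Cars (cysteine) separated the groups. Nars fell from 150.3 ± 8.58 to 124 ± 2.77 CPM (mean ± SD of 6 mice), a log2 fold change of -0.28. Lars stood at 64.3 ± 1.92 and 53.6 ± 1.72 CPM (-0.26). Cars stood at 52.3 ± 3.47 and 44.2 ± 0.754 CPM (-0.24). Gars, the glycine enzyme of cytosol and mitochondria, also separated, at 86.5 ± 3.12 and 77.8 ± 2.35 CPM (-0.15), a fall that was gone with library totals alone (0.00). Dars (aspartate, -0.22), Farsb (-0.21) and Tars (threonine, -0.14) fell with overlapping groups, and the call of Tars was lost in 9 of the 12 fits that left out a mouse.

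A second set of cytosolic members differed little. Qars, the glutamine enzyme of the complex, stood at 78.3, 81.6 and 83.9 CPM in WT (lowest, median, highest) and at 72.2, 79.9 and 85.0 CPM in mdx/mTR, with a log2 fold change of -0.03 (SE 0.04, adjusted p 0.59). Rars, the arginine enzyme of the complex, stood at 53.5 ± 2.24 CPM in WT against 52.8 ± 1.52 in mdx/mTR (-0.02, SE 0.04, adjusted p 0.70). Hars, the histidine enzyme, stood at 32.9 ± 1.77 and 32.7 ± 1.46 CPM (-0.01, SE 0.05, adjusted p 0.89). Kars, the lysine enzyme of both compartments and the complex, stood at 110.0 ± 3.18 and 106 ± 3.74 CPM (-0.06, SE 0.04, adjusted p 0.23). Farsa, the other subunit of the phenylalanine enzyme, stood at 24.8 ± 1.71 and 23.6 ± 1.18 CPM (-0.07, SE 0.05, adjusted p 0.31), where its partner Farsb fell. With library totals alone the sign of all 5 was positive, and Qars, Rars, Hars and Kars were called higher. Vars, the valine enzyme, had a log2 fold change of -0.14 (adjusted p 0.054) and was called in DESeq2.

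Inside and outside the multisynthetase complex the counts were close, and their difference was not tested. Of its 8 enzymes 5 fell (Mars, Iars, Eprs, Lars and Dars) and 3 were not called (Kars, Qars and Rars), and of the 12 cytosolic enzymes outside it 8 fell. The medians were -0.24 and -0.23. By the structural class of the catalytic domain, 5 of 9 cytosolic class I and 7 of 10 class II enzymes fell, and Eprs, which holds both domains, fell as well. Of the 3 scaffold genes, Aimp2 fell from 139 ± 11.3 to 99.4 ± 17.0 CPM, without overlap (-0.48, SE 0.10, adjusted p 0.0016). Aimp1 fell slightly (-0.15, adjusted p 0.026), though its change was 0.00 with library totals alone, and Eef1e1 was not called (-0.08 and, with library totals alone, 0.08).

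The 5′ ends of the cytosolic members were then searched for the letters of the composite element of ATF4 and C/EBP, since Atf4 itself was lower (below). RefSeq promoter windows of GRCm38.p6, 250 bases before to 50 after each start, were matched for 27 of the 36 members, 13 cytosolic and 14 mitochondrial. The table held no entry for Cars, Hars, Hars2, Lars, Nars, Pars2, Rars, Vars and Wars. The motif TGATGNAA, on either strand, was held by 3.97% of all 32851 windows and, counted per gene, by 4.51% of 27025 genes. It was found in 5 of the 13 cytosolic and 0 of the 14 mitochondrial members. The 5 were Aars, Gars, Iars, Tars and Yars, and all 5 were called lower, with a median log2 fold change of -0.41. Of the 8 cytosolic members without a match, 5 were called lower (Dars, Eprs, Farsb, Mars and Sars), with a median over the 8 of -0.22. With library totals alone 3 of the 5 and 3 of the 8 were lower, with medians of -0.25 and -0.07; Gars was then at 0.00, and the call of Tars was the one lost in 9 of the 12 fits without a mouse. A match is a description of letters, not of binding, and the counts are too small to compare. The matched stretches are printed with the motif in capitals, for Aars also an E-box (CACGTG). The E-box was held by 4 of the 13 cytosolic members, 1 of the 14 mitochondrial members, 7.15% of all windows and 8.09% of all genes. Mars, the member with the largest fall, is shown for contrast with the 60 bases before its start.
Aars, chr8:111033692-111033751, plus strand: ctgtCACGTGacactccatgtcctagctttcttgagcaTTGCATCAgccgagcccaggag
Gars, chr6:55037941-55038000, plus strand: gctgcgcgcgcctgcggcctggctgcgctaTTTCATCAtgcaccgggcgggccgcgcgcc
Tars, chr15:11399659-11399718, minus strand: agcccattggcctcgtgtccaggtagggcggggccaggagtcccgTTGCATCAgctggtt
Iars, chr13:49682115-49682144, plus strand: gttgagcctggcactgtcagtaTTGCATCA
Yars, chr4:129189888-129189917, plus strand: cggagcgacgagctcagcTGATGCAAcccg
Mars, chr10:127311787-127311846, minus strand: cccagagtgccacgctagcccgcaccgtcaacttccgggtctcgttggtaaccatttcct
By the RefSeq starts, Aars has a second match just inside its transcript, and the only matches of Iars and Yars also lie inside theirs. The GENCODE span of Aars given above begins before the printed stretch, so by that annotation both Aars matches lie inside the gene. The palindromic NRF1 element was found in 0 of the 27 members, 0.971% of windows and 1.07% of genes. The interferon-stimulated response element was found in 1 member, Qars, 3.44% of windows and 3.99% of genes.

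Of 29 tested genes of the integrated stress response 9 rose and 9 fell, beside 25.0% higher and 23.4% lower among all tested genes, and with library totals alone 12 were higher and 6 lower. The list thus holds calls both ways, at shares not far from those of all genes. Atf4 stood at 162, 179.9 and 189 CPM in WT (lowest, median, highest) and at 112, 129 and 134 CPM in mdx/mTR. The groups did not overlap, and the log2 fold change was -0.50 (SE 0.05, adjusted p 1.1e-05). Cebpg, which encodes a C/EBP partner of ATF4, fell from 87.5 ± 5.70 to 60.1 ± 6.67 CPM (-0.54, SE 0.07, adjusted p 6.2e-05). Ddit3, which encodes the stress factor CHOP, fell from 13.6 ± 1.62 to 8.73 ± 1.28 CPM (-0.64, SE 0.11, adjusted p 0.00029). Trib3, an ATF4 and CHOP target, was lower by a narrow margin (-0.43, adjusted p 0.044), a call lost with library totals alone and in 6 of the 12 fits without a mouse. Other genes of the list went both ways. Asns, which encodes asparagine synthetase, rose from 1.33 ± 0.166 to 3.19 ± 1.48 CPM (1.26, SE 0.26, adjusted p 0.0014), at a low level. Named after their values were seen, the serine synthesis genes Psat1 (1.63) and Phgdh (0.96), the mitochondrial folate genes Mthfd2 (0.89) and Aldh1l2 (0.23), and the stress-induced Nupr1 (0.61) and Atf3 (1.02) were called higher too. The other genes called lower were Atf5 (-0.46), Ppp1r15a (-0.49), Eif2ak1 (-0.22), Herpud1 (-0.23) and Vldlr (-0.73). The other genes called higher were Eif2ak3 (0.43) and Cebpb (0.52). The remaining 11 tested genes were not called, among them Chac1, Sesn2, Ddit4, Cth, Psph, Shmt2 and Pycr1. Fgf21 was not tested, with 3 counts in WT and 44 in mdx/mTR over all mice.

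Falls among mitochondrial members reached 17.6%. Fars2 (phenylalanine) had the largest, from 31.4, 31.9 and 34.9 CPM in WT (lowest, median, highest) to 21.5, 26.7 and 32.1 CPM in mdx/mTR. In mdx/mTR replicate 5 was lowest and replicate 4 highest, and only replicate 4 reached the WT range. Its log2 fold change was -0.28 (SE 0.07, adjusted p 0.0068). Exons of Nrn1 and Lyrm4 overlap Fars2 on the opposite strand. Rars2 (arginine) fell from 15.3 ± 1.18 to 12.8 ± 0.989 CPM (-0.25), Aars2 (alanine) from 33.8 ± 2.09 to 28.8 ± 1.61 CPM (-0.23) and Lars2 (leucine) from 51.5 ± 1.998 to 44.5 ± 3.49 CPM (-0.21). Of these 3, only Lars2 separated the groups, as did Cars2 (cysteine, -0.17) and Iars2 (isoleucine, -0.15).

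Iars2 was the most abundant mitochondrial member per length, at 19.5 CPM per kilobase in WT, against 0.951 to 15.2 for the others. It went from 106 ± 2.34 to 95.6 ± 5.66 CPM, and 22.9% of its exon length overlaps Rab3gap2 on the opposite strand, which was not called (-0.04). Vars2 (valine) also fell (-0.18, adjusted p 0.020). Ears2 (glutamate), Yars2 (tyrosine), Wars2 (tryptophan), Sars2 (serine) and Hars2 (histidine) had log2 fold changes from -0.16 to -0.03 and were not called.

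The 4 members with a positive log2 fold change were all mitochondrial, and none was called in the TMM scaling. Pars2 (proline), the member with the fewest counts, stood at 4.79 ± 0.712 and 5.54 ± 0.955 CPM in WT and mdx/mTR (0.21, SE 0.13, adjusted p 0.19). Nars2 (asparagine) stood at 8.78 ± 0.756 and 9.74 ± 0.833 CPM (0.15, adjusted p 0.11). Mars2 (methionine) stood at 10.7 ± 1.08 and 11.6 ± 0.941 CPM (0.12, adjusted p 0.22), and Tars2 (threonine) at 32.8 ± 0.886 and 34.3 ± 2.15 CPM (0.06, adjusted p 0.30). With library totals alone all 4 were called higher, at 0.21 to 0.36.

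The ratio of the cytosolic to the mitochondrial gene of an amino acid does not depend on how libraries are scaled, because it is taken within a mouse. The log2 ratio of counts was compared for 16 pairs with two-sided exact permutation tests over the 12 mice, 1 pair at a time. The p-values are not adjusted over the pairs, and the smallest possible is 0.00216. The ratio was lower in mdx/mTR for 12 pairs and higher for 4, with a median difference of -0.21, and p was under 0.05 for 11 pairs. Eprs enters 2 pairs, so these are not independent. How often ratios of other gene pairs differ between these groups was not tested, and 48.3% of all tested genes were called singly. The counts of pairs therefore have no baseline.

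The methionine pair differed most. Mars/Mars2 had a log2 ratio of 2.86, 3.26 and 3.39 in WT (lowest, median, highest) and 2.22, 2.54 and 2.76 in mdx/mTR. The groups were separate, and the difference in means was -0.67 (exact permutation p 0.00216). The asparagine pair Nars/Nars2 was also separate, at 4.10 ± 0.18 and 3.67 ± 0.11 (difference -0.43). So were the serine pair Sars/Sars2 at 2.79 ± 0.04 and 2.48 ± 0.12 (-0.32) and the alanine pair Aars/Aars2 at 2.35 ± 0.09 and 2.06 ± 0.10 (-0.29). Each of these 3 had an exact permutation p of 0.00216. Eprs/Pars2 differed by -0.59, Yars/Yars2 by -0.32, Iars/Iars2 by -0.25 and Eprs/Ears2 by -0.22, each with overlapping groups and an exact permutation p of 0.0152. Tars/Tars2 differed by -0.20 (exact permutation p 0.0390), which passed 0.05 in only 2 of the 12 analyses without a mouse.

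In 2 pairs the ratio moved the other way with p under 0.05. Rars/Rars2 was 1.81 ± 0.08 in WT and 2.04 ± 0.08 in mdx/mTR (difference 0.23, exact permutation p 0.00433), where Rars was not called and Rars2 fell. Farsa/Fars2 differed by 0.22 (exact permutation p 0.0433), and p was over 0.05 in 8 of the 12 analyses without a mouse. The lowest difference, 0.15, was without mdx/mTR replicate 5. Only the subunit Farsa was paired with Fars2. The other subunit, Farsb, was called lower (-0.21) where Farsa was not (-0.07), and a ratio of Farsb to Fars2 was not tested. For histidine, leucine, valine, cysteine and tryptophan the difference lay between -0.19 and 0.04 with p over 0.05. Hars and Hars2 lie on opposite strands with starts 197 bases apart and overlapping 5′ ends, and neither was called. Their exons share 195 bases, so reads there could have been counted for either gene.

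**Figure D3:**
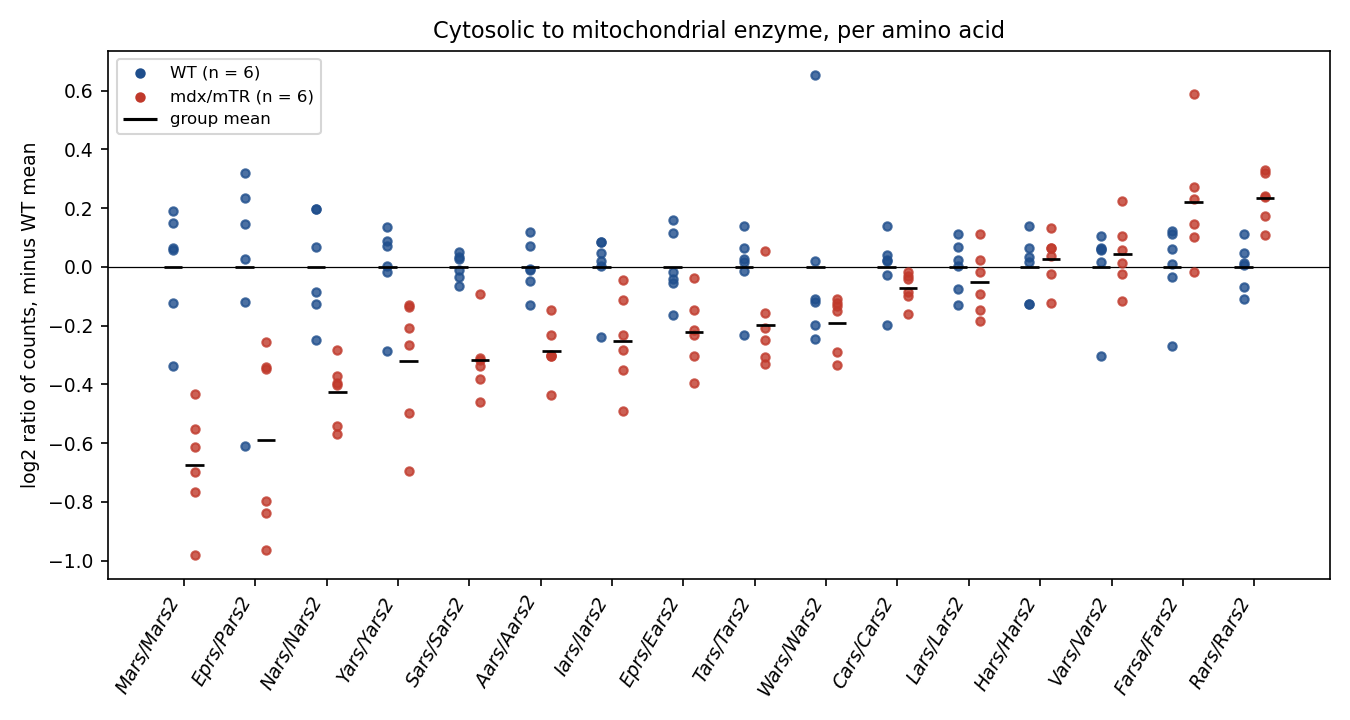
Log2 ratio of cytosolic to mitochondrial counts per mouse, less the WT mean of the pair (y axis), for 16 pairs ordered by the difference between groups. Points are mice and lines group means (n = 6 each); the difference runs from -0.67 for Mars/Mars2 to 0.23 for Rars/Rars2.

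One WT mouse stood lower for nearly all cytosolic members. WT replicate 2 was the lowest WT mouse for 19 of the 20 cytosolic members and the highest for 7 of the 16 mitochondrial members. The median cytosolic member stood at a log2 deviation of -0.15 from the WT mean in that mouse and between 0.01 and 0.05 in the other 5. In mdx/mTR the same median ran from -0.31 to -0.19, so in the TMM scaling all 6 were below WT replicate 2. These medians were not taken with library totals alone. As a share of library totals, the 36 members together made up 0.213% in WT replicate 2 and 0.205% to 0.222% in mdx/mTR mice. For mitochondrial members the medians were -0.05 to 0.05 in WT and -0.22 to -0.03 in mdx/mTR, with replicate 4 inside the WT range. Replicate 5 was the lowest mdx/mTR mouse for 10 of 16 mitochondrial members. Without WT replicate 2, 15 cytosolic members were lower (Vars and Wars were added) and 8 mitochondrial ones (Ears2 was added). Without WT replicate 2 and mdx/mTR replicate 5 together, 14 cytosolic and 6 mitochondrial members were lower.

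**Figure D4:**
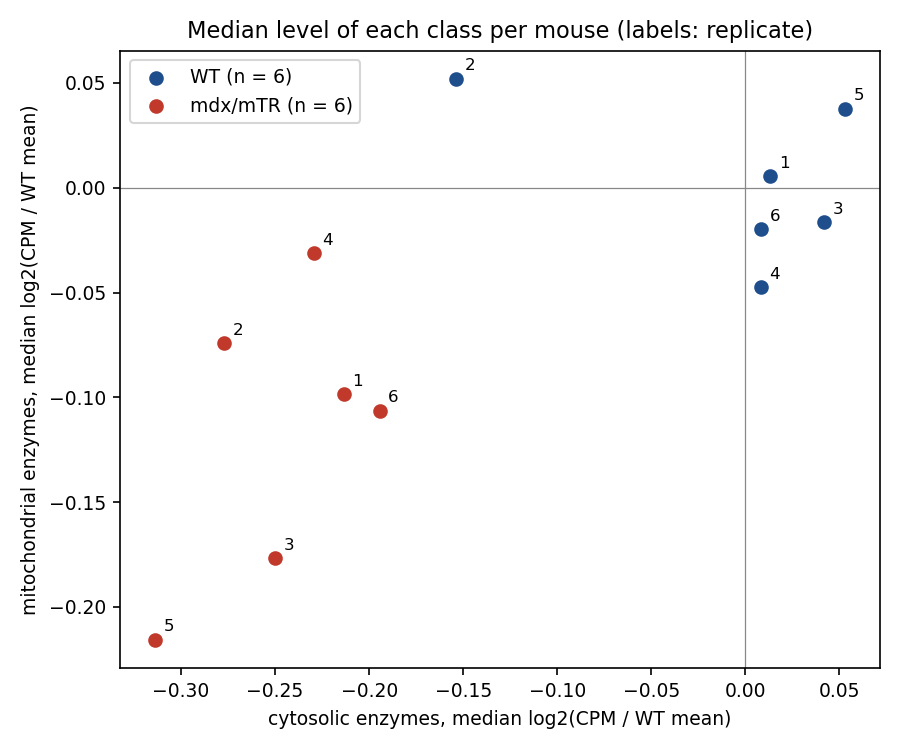
Median log2 deviation from the WT mean over 20 cytosolic members (x axis) and 16 mitochondrial members (y axis) for each mouse, labelled by replicate. In the TMM scaling shown, the mdx/mTR mice lie at -0.31 to -0.19 on the x axis, left of all WT mice. WT replicate 2 stands apart at -0.15.

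Wars, the cytosolic tryptophan enzyme, is known as a gene induced by interferon gamma, and a single mouse decided its value. In WT it stood at 50.4 to 56.3 CPM in 5 mice and at 93.9 CPM in replicate 6. In mdx/mTR it stood at 46.1, 47.0 and 51.4 CPM (lowest, median, highest). The log2 fold change was -0.33 (SE 0.13, adjusted p 0.051), and it was -0.15 without WT replicate 6, where it was called. It was also called without WT replicates 2, 3, 4 or 5. In the authors' deposited table Wars has a log2 fold change of -0.33 and no adjusted p. The same WT mouse was the highest of its group for 21 of 22 tested genes of the interferon gamma list. Examples chosen after their values were seen are Gbp3, a guanylate-binding GTPase, at 33.2 CPM against 4.70 to 6.50 in the other WT mice, Igtp at 39.3 against 8.39 to 11.0, and the antigen transporter gene Tap1 at 23.96 against 4.50 to 6.77. Wars was the only one of the 36 members whose value in that mouse lay beyond Dixon's limit for a single far value. Between the groups, 7 of the 22 genes rose and 0 fell, beside 25.0% higher and 23.4% lower among all tested genes. With library totals alone 7 were higher and 0 lower, beside 40.2% higher and 11.2% lower among all genes. The smallest p-values were those of the antigen presentation genes H2-Ab1 (1.400) and H2-Aa (1.401), and the largest rise that of Cxcl10 (1.96), at a mean of 0.207 CPM in WT.

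**Figure D5:**
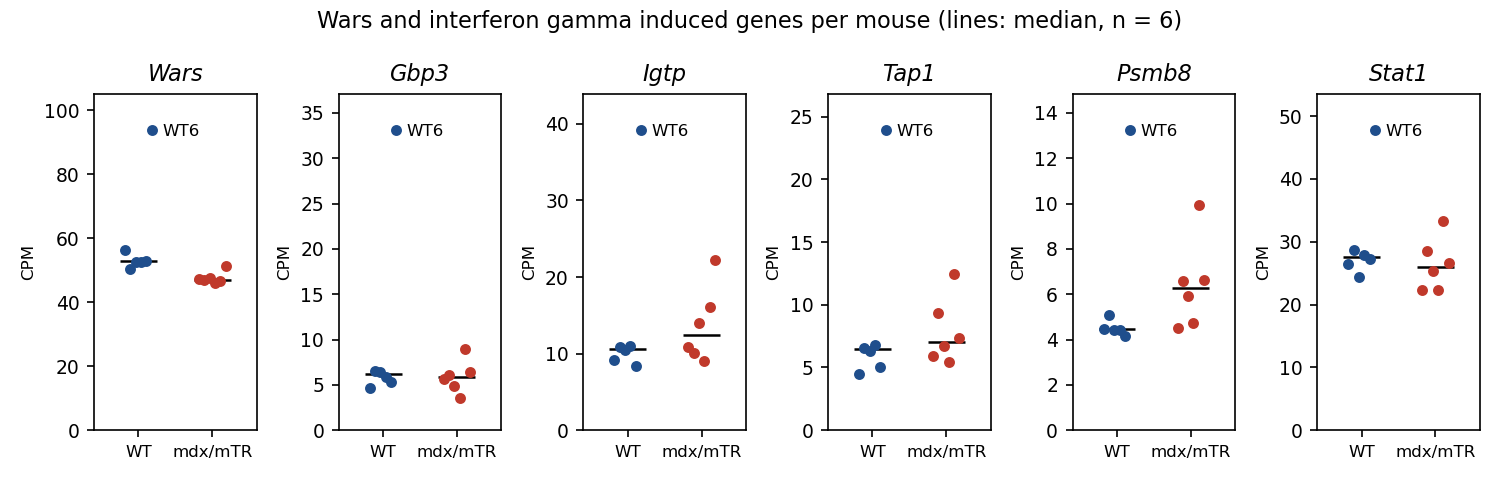
CPM per mouse (y axis, from 0) of Wars and 5 interferon gamma induced genes in WT and mdx/mTR, with group medians (n = 6 each). WT replicate 6 (WT6) is the highest WT mouse in all 6 panels, at 93.9 CPM for Wars.

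Other genes of transfer RNA charging and translation were counted from lists, beside the 23.4% lower and 25.0% higher of all tested genes. Of 15 other charging genes 6 fell and 0 rose (median -0.15). Qrsl1, a subunit of the mitochondrial transamidase that makes glutaminyl transfer RNA, fell from 27.8 ± 1.77 to 19.9 ± 2.03 CPM (-0.48, SE 0.07, adjusted p 0.00012). Its partner subunits Gatb (-0.28) and Gatc (-0.24) were also called lower; these 2 were named after their values were seen. Pstk, a kinase of selenocysteine synthesis, fell as well (-0.35). Of 16 mitochondrial translation factors 8 fell and 0 rose (median -0.15), with the smallest p-values for the elongation factor genes Gfm1 (173 to 122 CPM, -0.51) and Gfm2 (124 to 85.7 CPM, -0.53). Of 76 mitochondrial ribosomal protein genes 27 fell and 0 rose (median -0.10). Mrps18b (-0.45) and Mrpl16 (-0.35) had the smallest p-values, and the falls of Mrpl55 (-0.43) and Mrps6 (-0.38) were larger than that of Mrpl16. With library totals alone these 3 lists had 2, 4 and 7 genes lower and 1, 0 and 13 higher, and the median of the ribosomal list was 0.05.

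Of 35 cytosolic translation factors 14 fell and 2 rose (median -0.09), and with library totals alone 7 were lower and 9 higher. Eef1a1, the elongation factor form of most tissues other than adult muscle, rose from 92.7 ± 8.68 to 193 ± 56.0 CPM (1.06, SE 0.15), and Eef2k, the kinase that inhibits elongation factor 2, fell (-0.55). Of 19 amino acid transporters 7 rose and 5 fell (median 0.21), beside 25.0% higher and 23.4% lower among all genes, and with library totals alone 11 were higher and 5 lower (median 0.38). Slc38a4 fell from 195 ± 32.2 to 91.9 ± 16.01 CPM (-1.09, SE 0.13), and Slc38a1 rose from 0.929 ± 0.218 to 5.99 ± 3.95 CPM (2.68, SE 0.36).

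In the authors' deposited table, 14 cytosolic and 8 mitochondrial members have an adjusted p under 0.05 with a lower level, and 0 are higher, against 24.7% of its genes called lower. The 2 members lower there and not in edgeR are Vars (adjusted p 0.040 in the authors' deposited table) and Ears2 (0.048).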

How the data were processed

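Per the submitters' processing notes, the tools were FastQC, STAR and DESeq2 and the build mm10; versions, annotation, counter and strand handling are not given in the sources used here. The authors deposited whole-number counts per gene symbol for 12 mice, with 0 unmatched sample columns. The authors' deposited comparison table holds a mean normalized signal, a log2 fold change with its error, a test score and p-values.

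Counts were tested with edgeR 4.0.16 in R 4.3.3 (filterByExpr, TMM, group as the only term, quasi-likelihood F test). The 13937 tested genes hold 99.97% of counts. SE is the log2 fold change over the square root of F. Groups came from sample titles; the replicates are separate mice by their titles only, so p-values measure the spread between these samples. Every replicate pair differed by more than sampling noise (chi-square per degree of freedom 9.32 to 128). A count of 3, the limit a count of 0 allows, equals 0.0460 to 0.0837 CPM; it covers counting error only. Positions, lengths and shared 50-base stretches came from GENCODE M21 (GRCm38), promoters from RefSeq. Permutation tests used scipy 1.17.1. The procedure was tested on simulated counts in which few genes changed, as many up as down. The simulation could not test the choice of scaling, because many genes differ in these data. Alternatives were library totals, upper quartile scaling, other filters, DESeq2 1.42.0, limma-voom 3.58.1, a replicate block and each mouse left out; leaving out 2 mice together was added after seeing the data. Members and lists were chosen with earlier results of these data known. Named genes were all members, the scaffolds, Dmd, Atf4, Ddit3, Asns, Trib3 and Fgf21, and the 2 smallest p-values of each list of translation, charging, stress, transport or interferon genes; other names were chosen after values were seen.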

Additional observations from a re-analysis of the deposited data

Results flagged for a closer look

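A single mouse was listed where its distance to the next mouse, as a share of the whole spread of its 6 mice, passed Dixon's 95% critical value. This happened in 14 of 104 sets (36 members and 16 ratios in both groups), where chance gives about 1 in 20, or 5.2. The values are not independent, and 9 of the 14 fell on WT replicate 2.

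WT replicate 2 was the lowest WT mouse for Aars (149.99 CPM against 171 to 181), Eprs (358 against 444 to 466), Farsb (57.2 against 63.7 to 67.4), Iars (110.3 against 125 to 133), Mars (89.7 against 98.1 to 103) and Nars (134 against 150.3 to 159). It was also lowest for the log2 ratios Iars/Iars2 (-0.00328 against 0.24 to 0.32), Vars/Vars2 (1.11 against 1.43 to 1.52) and Yars/Yars2 (1.58 against 1.85 to 2.01). WT replicate 6 was highest for Wars (93.9 CPM against 50.4 to 56.3) and for the ratio Wars/Wars2 (3.28 against 2.38 to 2.64).

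In mdx/mTR, replicate 6 was highest for Aars (133 CPM against 115 to 119.6) and Wars (51.4 against 46.1 to 47.5), and replicate 5 was lowest for Tars2 (30.04 CPM against 34.4 to 35.9).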

How the results depend on the processing

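The scaling of libraries changed most. With library totals alone 1560 genes were lower and 5596 higher, against 3257 and 3479. Then 8 cytosolic members were lower and 4 higher, 0 mitochondrial members lower and 4 higher, and the class medians were -0.0773 and 0.00253. Under that scaling 12 members and 3 other named genes changed sign: Farsa 0.0878, Gars 0.00358, Hars 0.1498, Hars2 0.121, Kars 0.0969, Qars 0.124, Rars 0.136, Sars2 0.0727, Tars 0.0156, Vars 0.0171, Wars2 0.0539, Yars2 0.00544, Aimp1 0.000290, Eef1e1 0.0796 and the adipocyte gene Plin1 0.0229. With upper quartile scaling Hars (0.0318), Hars2 (0.00635), Qars (0.00937) and Rars (0.0204) changed sign and 1 mitochondrial member, Nars2, was called higher. With the stricter filter Hars was 0.00492. Adipoq, an adipocyte gene, was -0.134 in limma-voom.

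Analyses without 1 of the 12 mice gave 2950 to 3254 genes lower and 3163 to 3562 higher, 12 to 15 cytosolic and 7 to 8 mitochondrial members lower, 0 higher, and class medians of -0.262 to -0.218 and -0.166 to -0.125. The ranges of results whose sign changed in any alternative include Hars -0.0384 to 0.00540, Hars2 -0.0490 to -0.00828, Plin1 -0.326 to 0.0126, Adipoq -0.207 to 0.128, and the ratios Hars/Hars2 -0.000313 to 0.0547 and Vars/Vars2 -0.0178 to 0.0746, where both lowest values were without WT replicate 2. Pairs wholly lower in mdx/mTR numbered 4 to 7 (7 without WT replicate 2) and wholly higher 0 to 1. Without WT replicate 2 and mdx/mTR replicate 5 together, 1 mitochondrial member (Pars2) was higher, and Hars2 (0.00651) and Plin1 (0.0112) changed sign.

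Replicate numbers recur in both groups, but deviations of same-numbered mice correlated from -0.15 to 0.35, with 2 of 6 over 0.1, so no pairing was assumed. Fitting a replicate block called 15 cytosolic and 7 mitochondrial members lower, Vars and Wars being added, and turned Adipoq to -0.0651. The cause of these changes was not tested. Depth limits Pars2 most, whose lowest count was 142 in WT and 212 in mdx/mTR.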
